A study of Mus musculus with 8 samples.

Results

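The genes described are 9 components and regulators of the complement system, C3, C4b, C2, C7, Cfb, Serping1, C1ra, Cd55 and Cd59a, taken by name from a table of 23993 genes measured by RNA sequencing in mouse thoracic aorta. All 9 were found in the table and all 9 had a mean of at least 1 FPKM, so each was tested. The list of names was given and used no measured value, although it was proposed when results of these libraries were already known. FPKM scale the fragments of a gene to its transcript length and to library size, which makes levels of different genes comparable per length.

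The 8 libraries come from thoracic aortas of male C57BL/6 mice aged 24 weeks, 4 from controls (Tsc1+/+) and 4 from knockouts (Tsc1fl/fl before recombination, labelled Tsc1-/-). All 8 carried Myh11-CreERT2, a Cre recombinase made in smooth muscle cells and activated by tamoxifen, and the mT/mG reporter, a membrane label that changes colour on recombination, and all were given tamoxifen at 1.5 weeks. Tsc1 encodes hamartin, which restrains the growth kinase mTORC1. The labels number the libraries 1 to 4 in each group without saying that each is a separate mouse. If they are not, the p-values speak only of the spread among these libraries, which could be technical.

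Complement is a cascade of plasma and tissue proteins that marks surfaces for removal. In the classical pathway C1q bound to a target activates the proteases C1r and C1s, which cut C4 and C2 into a C3-cleaving enzyme. In the alternative pathway factor B (Cfb) and factor D (Cfd) build a similar enzyme on C3 itself. Cleaved C5 then gathers C6, C7, C8 and C9 into a membrane pore. Inhibitors act at each step. C1 inhibitor (Serping1) blocks C1r and C1s, Cd55 takes apart the C3-cleaving enzymes, and Cd59a stops the pore. Liver makes most plasma complement, and fibroblasts, macrophages, fat cells and vascular cells add locally made components.

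In the knockout aortas 2 of the 9 genes fell, 0 rose and 7 did not pass the test. C2 fell from 8.15 ± 2.37 to 4.71 ± 0.472 FPKM (SD, n = 4 per group) and Cd59a from 116 ± 5.1 to 74.1 ± 18.3 FPKM. These 2 genes were also the ones whose groups did not overlap. At an unadjusted p under 0.05 the limma counts were the same, 2 lower and 0 higher. The 22.2% of the 9 genes called stands beside 32.2% of all 12107 tested genes called in either direction (17.1% higher and 15% lower), and in 33.9% of tested genes the 2 groups did not overlap. Their median log2 difference, knockout minus control on log2(FPKM + 1), was -0.15, against 0.01 for all tested genes. Called means a limma p under 0.05 after Benjamini-Hochberg adjustment over the whole table, and log2 differences are given with their standard error (SE).

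**Figure D1:**
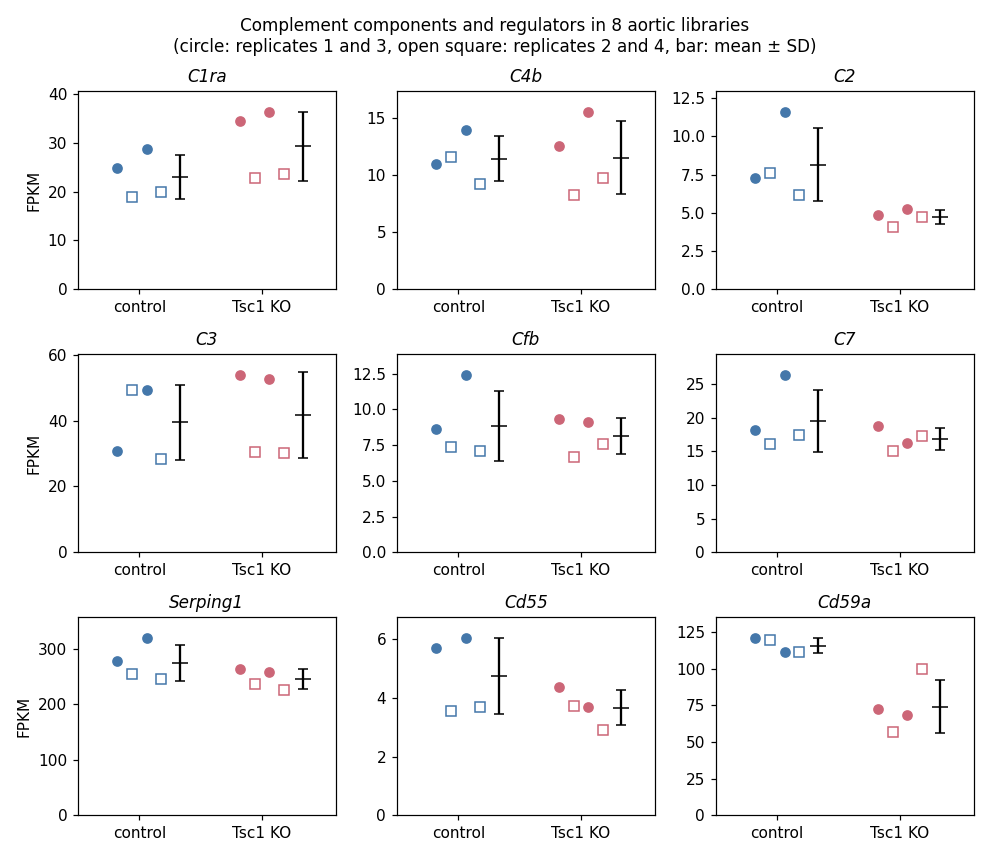
FPKM of the 9 complement genes (vertical axes, from 0) in 4 control and 4 Tsc1 knockout libraries; filled circles are replicates 1 and 3, open squares replicates 2 and 4, and bars the mean ± SD. C2 and Cd59a lie lower in all 4 knockouts than in any control, and the other 7 genes overlap.

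Across the 8 libraries relative depth, read from the ratios of values under 0.3 FPKM, ran from 0.763 to 2.44 with control 1 at 1, and absolute depth is unknown. The most common ratio behind each estimate held only 7.73% to 14.6% of the values. Tsc1 itself fell from 5.03 ± 0.952 to 3.41 ± 0.315 FPKM (adjusted p = 0.019), below every control in 4 of 4 knockouts. A value over the whole gene does not separate its floxed part, so this is a partial check of the labels. The Tsc1 call was lost within replicates 1 and 3 (-0.39, limma adjusted p = 0.0682) and within 2 and 4 (-0.49, limma adjusted p = 0.0514). The labels name smooth muscle as the cell type, and 8 contractile smooth muscle markers summed to 18042 to 18515 FPKM in controls and 11514 to 15493 in knockouts. Markers of adventitial fibroblasts, endothelium, fat cells and macrophages were present too, so the values are those of the vessel wall and attached tissue, in which fewer cells of a type and less RNA per cell cannot be told apart. Control 1 had the highest sum of 8 fat cell markers (906, against 236 to 523 FPKM in the others) and control 4 the highest sum of 8 striated muscle markers (186, against 7.44 to 38.9). The second principal component, with 16.6% of the variance, separated replicates 1 and 3 from 2 and 4 in both genotypes. The labels do not say what these numbers share. The split into odd and even numbers was chosen from earlier results of these same libraries. Calls from fits that use this split, or from either part of it alone, are therefore not independent support.

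The order of the levels was the same in both genotypes, from Serping1 through Cd59a, C3, C1ra, C7, C4b, Cfb and C2 to Cd55. Serping1 ranged from 246 to 318 FPKM in controls and Cd55 from 3.55 to 6.01. Neighbours in this order whose control values overlapped were C3 and C1ra, C1ra and C7, C4b and Cfb, and Cfb and C2. In knockouts the overlapping neighbours were C3 and C1ra, C7 and C4b, C4b and Cfb, and C2 and Cd55. Cfb and C2, which overlapped in controls, were thus apart in knockouts. Control 3 had the highest value among controls for 8 of the 9 genes, and replicate 1 or 3 the highest among knockouts for 8 of the 9, Cd59a being the exception in both.

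The classical pathway proteases and their substrates come first. C1ra, which encodes the protease C1r, lies on chromosome 6, 124512405 to 124523443 (mm10). Controls, in the order of their numbers as in all lists of values here, had 24.8, 18.9, 28.7 and 19.9 FPKM, and the knockouts 34.6, 22.8, 36.3 and 23.6. In each genotype replicates 1 and 3 were the high ones, and the groups overlapped. The difference over all libraries did not pass (log2 difference 0.32, SE 0.19, adjusted p = 0.214, and 0.21 without knockout 3). Among replicates 1 and 3 alone it was 0.40 (limma adjusted p = 0.0311) and among replicates 2 and 4 alone 0.25 (limma adjusted p = 0.0455), with 2 libraries against 2 each. When the fit held a term for odd or even replicate number, C1ra was called as higher (adjusted p = 0.00433), in a fit that called 3 of the 9 genes and 41.2% of all tested genes.

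C4b, which encodes complement C4, lies on chromosome 17, 34728380 to 34743882. Its values were 11, 11.6, 14 and 9.27 FPKM in controls and 12.6, 8.31, 15.5 and 9.76 in knockouts. The groups covered almost the same range (log2 difference -0.01, SE 0.18, 95% interval -0.43 to 0.40, adjusted p = 0.966). C4a, a close copy nearby, was at 0.0662 to 0.217 FPKM, and how fragments shared between the copies were assigned is not given in the sources used here.

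C2, the protease that joins C4 in the C3-cleaving enzyme, is on chromosome 17, 34862604 to 34898265. It had 7.26, 7.60, 11.6 and 6.14 FPKM in controls and 4.85, 4.09, 5.22 and 4.69 in knockouts. Every knockout was below the lowest control, and control 3 was the highest of all. C2 fell by 0.65 on the log2 scale (SE 0.16, adjusted p = 0.0144). Its call was kept in each of the 21 alternative fits, with log2 differences from -0.87 to -0.49, among them those within replicates 1 and 3 (-0.76) and within 2 and 4 (-0.54).

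Cfb, the alternative pathway counterpart of C2, is separated from it by 85 bases, at chromosome 17, 34856374 to 34862518, on the same strand. Its values were 8.60, 7.36, 12.4 and 7.07 FPKM in controls and 9.30, 6.65, 9.11 and 7.58 in knockouts. The groups overlapped and the difference did not pass (log2 difference -0.09, SE 0.17, 95% interval -0.47 to 0.29, adjusted p = 0.729, and 0.07 without control 3). The FPKM ratio of C2 to Cfb within a library was 0.844, 1.03, 0.935 and 0.869 in controls and 0.521, 0.614, 0.573 and 0.619 in knockouts. This ratio differed between genotypes by -0.66 on the log2 scale (exact two-sided permutation test, p = 0.0286, which is the lowest value possible with 4 libraries a group), and all 4 knockouts were below all controls. It was 1 of 3 ratios chosen after the values were seen, and its exact permutation p was 0.0856 after adjustment over the 3. Of the 10 tested genes near C2, Cfb and C4b in this part of the major histocompatibility region, limma called 0 in either direction. Of all tested genes 32.2% were called. At an unadjusted p under 0.05 limma gave 1 higher (Clic1) and 0 lower. In Clic1 all 4 knockouts were above all controls (limma adjusted p = 0.0508).

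**Figure D2:**
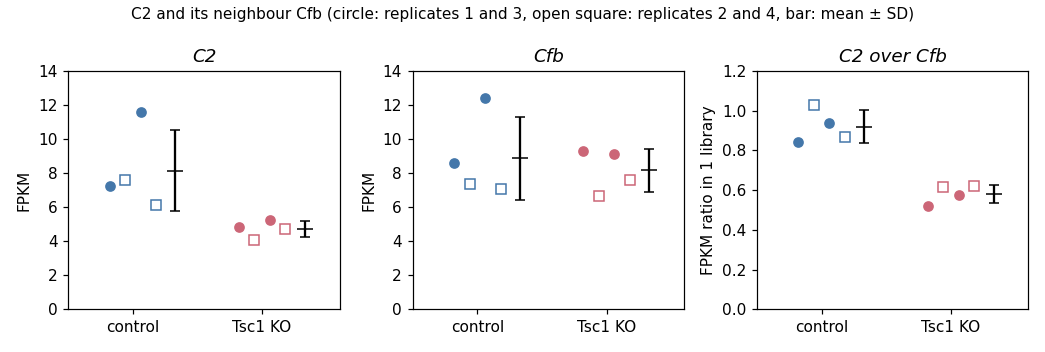
C2 and Cfb in FPKM and the FPKM ratio of C2 to Cfb in each library (vertical axes, from 0), with filled circles for replicates 1 and 3, open squares for 2 and 4, and bars for mean ± SD. Ratios are 0.844 to 1.03 in controls and 0.521 to 0.619 in knockouts, while Cfb overlaps.

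C3, the protein on which all pathways meet, lies on chromosome 17, 57203970 to 57228136. It had 30.7, 49.3, 49.3 and 28.4 FPKM in controls and 53.7, 30.6, 52.5 and 30.2 in knockouts. In each genotype 2 libraries were near 30 and 2 near 50, replicates 2 and 3 being high among controls and 1 and 3 among knockouts. Over all libraries the log2 difference was 0.07 (SE 0.26, 95% interval -0.51 to 0.66, adjusted p = 0.855). Within replicates 1 and 3 it was 0.44 and within 2 and 4 it was -0.29, and the difference between these did not pass (0.73, limma adjusted p = 0.395). None of the 9 genes passed that interaction test by limma, which called 1.62% of all tested genes.

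C7, the pore component through which the growing complex attaches to the membrane, is on chromosome 15, 4988762 to 5063740. Its values were 18.1, 16.1, 26.3 and 17.4 FPKM in controls and 18.8, 15.1, 16.2 and 17.3 in knockouts. Control 3 stood above the rest, which overlapped (log2 difference -0.18, SE 0.14, adjusted p = 0.363). Without control 3 the difference was -0.03. The other genes of the pore were low in every library. C6 reached at most 0.183 FPKM and Hc, which encodes C5, at most 0.0711, while C8g ranged from 0.444 to 0.836. None of the 6 listed terminal genes besides C7 reached the mean of 1 FPKM needed for a test.

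Serping1, the gene of C1 inhibitor, was the highest of the 9 and lies on chromosome 2, 84765387 to 84775444. It had 278, 255, 318 and 246 FPKM in controls and 264, 237, 257 and 225 in knockouts. Of the knockouts 2 were below the lowest control, and the difference did not pass (log2 difference -0.15, SE 0.09, adjusted p = 0.23, and -0.08 without control 3). Serping1 varied least among knockouts, with a coefficient of variation of 7.31%.

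Cd55, decay-accelerating factor, is on chromosome 1, 130439027 to 130462744. It was the lowest of the 9, with 5.69, 3.55, 6.01 and 3.68 FPKM in controls and 4.35, 3.71, 3.68 and 2.91 in knockouts. Controls 1 and 3 were the high libraries and the groups overlapped (log2 difference -0.28, SE 0.17, adjusted p = 0.23, and -0.17 without control 3). Within replicates 1 and 3 alone it was called as lower (-0.45, limma adjusted p = 0.0278), and within 2 and 4 it was not (-0.11, limma adjusted p = 0.556). The copy of Cd55 given as Daf2 is listed at 0 in all libraries.

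Cd59a, the membrane inhibitor of the pore, lies on chromosome 2, 104095801 to 104115354. Its values were 120.5, 119.6, 111 and 111 FPKM in controls and 72.2, 56.5, 68.2 and 99.7 in knockouts. The controls lay within 1.08-fold of each other, the tightest of the 9 genes, while knockouts spread over 1.76-fold with knockout 4 nearest the controls. Cd59a fell by 0.66 on the log2 scale (SE 0.15, adjusted p = 0.00917). The call was lost within replicates 2 and 4 alone (-0.61, limma adjusted p = 0.145) and without controls 1 and 4 together (-0.66, limma adjusted p = 0.0643). Cd59b, its neighbour and close copy, stayed between 0.156 and 1.02 FPKM. The ratio of Cd59a to Cd55 did not differ beyond its spread (25.9 ± 7.24 and 21.2 ± 8.86, exact permutation p = 0.343). Contractile smooth muscle markers moved the same way, with 5 of 8 lower beside 15% of all tested genes. So did 9 of 12 endothelial and 8 of 13 adventitial fibroblast markers. Among knockouts, knockout 2 had the highest contractile sum (15493 FPKM) and the lowest Cd59a (56.5 FPKM). The part of these cell types in the fall of Cd59a was not tested.

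Promoter sequence was given by RefSeq (GRCm38.p6, the build also named mm10) for 5 of the 9 genes. C4b, C2, Cfb and Serping1 had no entry. The windows of C3, C1ra and Cd59a, 250 bases before to 50 bases after the start site, are shown because C3 and C1ra varied between libraries within a genotype and Cd59a fell. Capitals mark matches on either strand to motifs of factors known to act on complement or interferon-responsive genes.
C3, chr17:57228087-57228386, minus strand: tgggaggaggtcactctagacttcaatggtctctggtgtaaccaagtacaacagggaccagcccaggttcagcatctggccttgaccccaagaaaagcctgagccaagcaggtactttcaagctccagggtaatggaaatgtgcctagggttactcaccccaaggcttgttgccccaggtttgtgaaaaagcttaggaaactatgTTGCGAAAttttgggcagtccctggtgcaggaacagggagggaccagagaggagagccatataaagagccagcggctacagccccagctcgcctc
C1ra, chr6:124512371-124512670, plus strand: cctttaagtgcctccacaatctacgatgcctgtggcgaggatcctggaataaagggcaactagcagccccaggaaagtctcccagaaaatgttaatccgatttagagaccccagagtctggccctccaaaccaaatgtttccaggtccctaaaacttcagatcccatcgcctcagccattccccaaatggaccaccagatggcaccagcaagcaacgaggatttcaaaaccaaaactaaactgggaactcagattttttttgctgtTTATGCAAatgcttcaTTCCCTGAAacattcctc
Cd59a, chr2:104095551-104095850, plus strand: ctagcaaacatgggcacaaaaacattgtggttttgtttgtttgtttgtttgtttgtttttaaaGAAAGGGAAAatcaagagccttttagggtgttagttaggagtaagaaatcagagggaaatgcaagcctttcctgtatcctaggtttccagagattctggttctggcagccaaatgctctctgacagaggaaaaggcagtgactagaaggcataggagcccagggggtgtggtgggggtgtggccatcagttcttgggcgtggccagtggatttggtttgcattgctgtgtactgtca

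The C3 window holds TTGCGAAA, starting 45 bases before the start site, a match to the C/EBP motif TTGCNNAA, which 10.8% of all 32851 promoter windows of this length hold. The C1ra window holds a C/EBP match on the other strand, TTATGCAA, and a STAT motif TTCNNNGAA as TTCCCTGAA, a motif found in 8.3% of windows. Both lie after the start site, beginning at bases 17 and 33. By the GENCODE gene start given above, 124512405, most of the C1ra window lies inside the gene. The Cd59a window holds GAAAGGGAAA, a match to the interferon element, in which 2 copies of GAAA stand 2 bases apart, found in 3.44% of windows. The E-box CACGTG, the CArG box and the NF-kB motif were not found in these 3 windows, which says nothing of the factors. Cebpb and Cebpd, which encode C/EBP factors, did not differ by genotype beyond their spread (log2 differences -0.04 and -0.07, adjusted p = 0.947 and 0.904). Cebpb had 43.8, 49.4, 36.9 and 21.3 FPKM in controls and 53.9, 29.5, 47.6 and 20.4 in knockouts. Knockouts 1 and 3 were high for both Cebpb and C3. Among controls 1 and 2 were the high ones for Cebpb and 2 and 3 for C3. A link between Cebpb and C3 was not tested.

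Other genes of the pathway were measured in the same libraries. Of 51 other listed complement genes 27 stayed under 1 FPKM in every library and 22 were tested. Among those 22, 6 rose, 4 fell and 12 did not pass (45.5% called, beside 32.2% of all tested genes), with a median log2 difference of -0.08. The lists were written with earlier results of these libraries known.

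**Figure D3:**
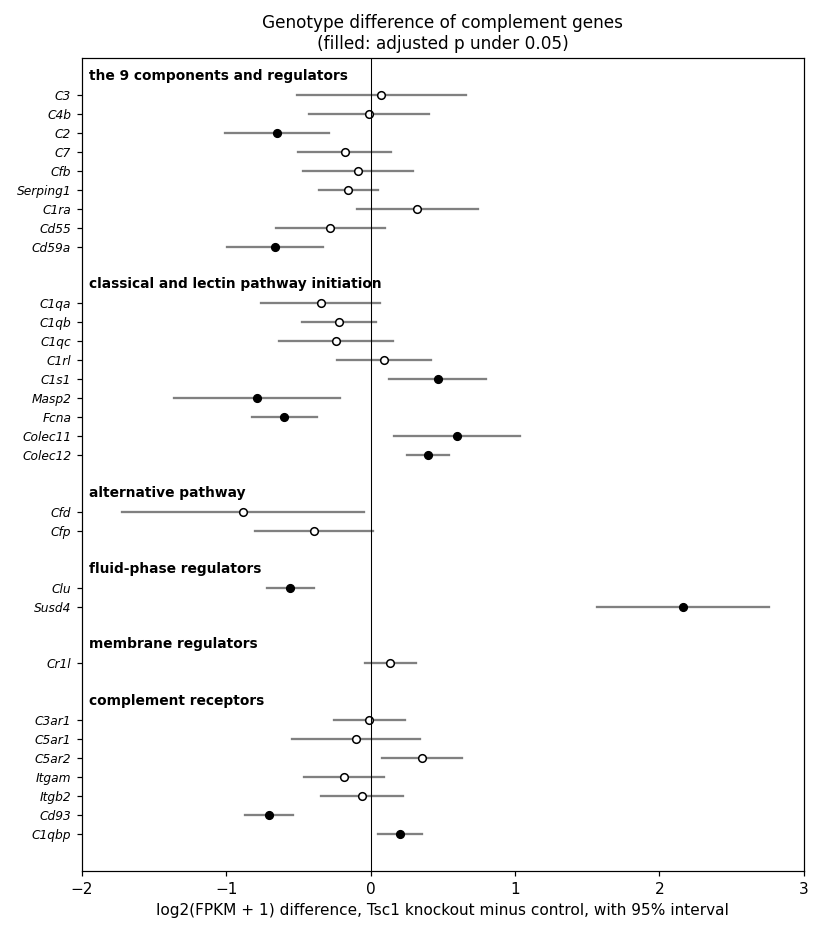
Log2(FPKM + 1) difference, knockout minus control, with its 95% interval (horizontal axis) for the 9 genes and the other tested complement genes reported here, grouped by role; filled points have an adjusted p under 0.05. Susd4 stands farthest to the right, at 2.17.

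At the start of the classical pathway C1s1, the partner protease of C1r, lies 6901 bases from C1ra and followed the same library pattern. It had 31.4, 23.2, 33.0 and 24.2 FPKM in controls and 43.8, 32.0, 44.8 and 35.0 in knockouts. C1s1 rose by a log2 difference of 0.46 (SE 0.15, adjusted p = 0.0402), although knockout 2 was below control 3. Its call was lost in 8 alternatives, among them without control 2, control 4, knockout 1, knockout 3 or knockout 4 (0.38 to 0.51), while within replicates 1 and 3 and within 2 and 4 it was kept (0.45 and 0.48). The ratio of C1s1 to C1ra was 1.22 ± 0.0481 in controls and 1.34 ± 0.115 in knockouts (exact permutation p = 0.0571, 0.0856 after adjustment over the 3 ratios).

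The chains of C1q had lower means in knockouts without passing. C1qa was 58.3 ± 13.5 in controls and 45.4 ± 8.85 FPKM in knockouts (log2 difference -0.35, adjusted p = 0.18), and C1qb and C1qc had log2 differences of -0.22 and -0.24. All 3 were called as lower once the fit held a term for odd or even number (adjusted p = 0.00508, 0.0383 and 0.0108). In that fit 9 of the 22 genes were lower, Cfd, Cfp and the 3 C1q chains being the added ones, against 19.4% of all tested genes. Macrophages are a main source of C1q, and of 14 macrophage markers limma called 0 in either direction, with 2 higher and 0 lower at an unadjusted p under 0.05. The macrophage sum ran from 158 to 223 FPKM in controls and from 137 to 187 in knockouts, and in the fit with odd or even number 2 of the 14 were higher and 4 lower, beside 21.8% and 19.4% of all tested genes. The part of macrophage content in the C1q levels was not tested.

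Of the lectin pathway, Fcna (ficolin A, a sugar-binding starter made by macrophages) fell from 5.78 ± 0.797 to 3.46 ± 0.321 FPKM (adjusted p = 0.0022). Masp2, the protease that acts with ficolins, had 1.87, 1.77, 1.61 and 2.22 FPKM in controls and 0.511, 1.48, 0 and 1.01 in knockouts, where 0 is the listed value and can be a failed estimate. Masp2 fell by 0.79 on the log2 scale (adjusted p = 0.0418), and its call was lost in 10 of 20 alternatives, among them without any 1 of the 4 controls, knockout 1 or knockout 3 (-0.83 to -0.54). The collectins Colec12 and Colec11 rose. Colec12, a scavenger receptor of vascular cells, went from 74.5 ± 3.53 to 98.5 ± 6.81 FPKM (adjusted p = 0.0021) and Colec11 from 2.12 ± 0.828 to 3.62 ± 0.588 (adjusted p = 0.0417). The Colec11 call was lost in 9 of 20 alternatives, among them without control 1, 2 or 4 or knockout 1, 3 or 4 (0.43 to 0.67).

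In the alternative pathway Cfd, the protease that cuts factor B, had 131, 49.2, 51.1 and 67.9 FPKM in controls and 36.1, 24.6, 67.4 and 30.7 in knockouts. Control 1 was the highest and knockout 3 the highest knockout, and the difference did not pass (log2 difference -0.88, adjusted p = 0.0997). Cfd, also called adipsin, is made by fat cells, and the same 2 libraries had the highest fat cell sums in their groups (906 and 523 FPKM), whose part was not tested. Cfp, properdin, which steadies the alternative enzyme, did not pass either (-0.39, adjusted p = 0.131).

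Of the 3 tested genes listed as fluid-phase regulators 2 rose and 1 fell. Susd4, a membrane protein with complement control domains, rose from 0.365 ± 0.199 to 5.46 ± 2.55 FPKM, a log2 difference of 2.17 (SE 0.26, adjusted p = 5.04e-04), with 3.14 to 8.29 FPKM in knockouts and at most 0.659 in controls. Clu, clusterin, which binds the forming pore in solution, fell from 609 ± 33.7 to 414 ± 33.7 FPKM (-0.56, adjusted p = 6.54e-04). Cfi, the protease that breaks down activated C3 and C4, was at most 0.437 FPKM in every library.

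**Figure D4:**
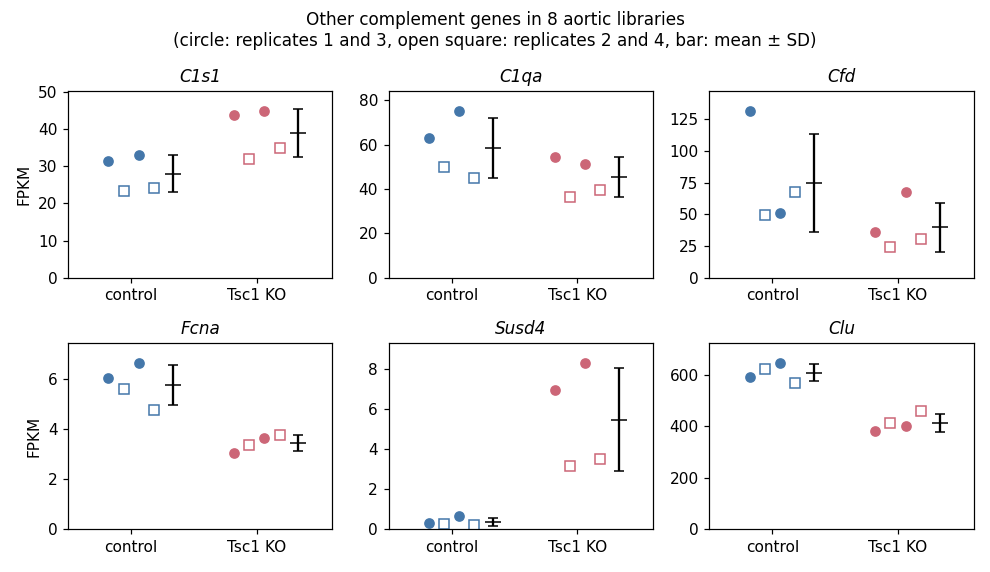
FPKM of C1s1, C1qa, Cfd, Fcna, Susd4 and Clu (vertical axes, from 0) in each library, with filled circles for replicates 1 and 3, open squares for 2 and 4, and bars for mean ± SD. All 4 knockouts lie above all controls for Susd4 and below them for Fcna and Clu, and control 1 is the high library for Cfd.

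Among membrane regulators Cr1l (Crry, the broad rodent inhibitor of C3-cleaving enzymes) was 38.3 ± 1.81 FPKM in controls and 42.3 ± 4.18 in knockouts and did not pass (adjusted p = 0.219). Cd46 reached at most 0.945 FPKM. Of the receptors, the 3 for the released fragments of C3 and C5 did not pass, C3ar1 at a log2 difference of -0.01 (95% interval -0.26 to 0.24) and C5ar1 at -0.10 (-0.55 to 0.34). C5ar2, the other C5a receptor, was 0.999 ± 0.263 FPKM in controls and 1.55 ± 0.222 in knockouts, with all 4 knockouts above all controls (log2 difference 0.36, adjusted p = 0.0518). It was called as higher with the odd or even term (adjusted p = 0.0429) and within replicates 1 and 3 (0.57, limma adjusted p = 0.0366), but not within 2 and 4 (0.14, limma adjusted p = 0.445). Cd93, once named a C1q receptor and made by endothelium, fell from 10.4 ± 0.927 to 6.00 ± 0.31 FPKM (adjusted p = 2.41e-04), while 9 of 12 endothelial markers fell as well, beside 15% of all tested genes, a link that was not tested. C1qbp, a mostly mitochondrial protein that binds C1q, rose by 0.20 (adjusted p = 0.0448), a call lost in 11 of 21 alternatives, among them without control 2, 3 or 4 or knockout 2, 3 or 4 (0.18 to 0.22).

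Markers of cells that can make complement moved unequally. Of 13 adventitial fibroblast markers 0 rose and 8 fell, beside the 15% of all tested genes called lower, and their sums were 2058 to 2629 FPKM in controls and 1564 to 1985 in knockouts. At an unadjusted p under 0.05 limma gave 1 higher and 9 lower. Igfbp6 fell by 1.46 and Mfap5 by 1.23 on the log2 scale, the largest falls of the 13. Pdgfra and Col14a1 had log2 differences above 0 (0.26 and 0.34) and were not called. In the fit with odd or even number 2 of the 13 were higher and 9 lower, beside 21.8% and 19.4% of all tested genes. Fibroblasts are a known source of C3, C4b, C7, Serping1 and C1ra, none of which fell by the test, and the part of fibroblast content in their levels was not tested. Mesothelial markers, another possible source of C3, summed to 5.15 to 34.9 FPKM in controls and 5.80 to 21.7 in knockouts, and 0 of the 5 tested were called (0 at an unadjusted p under 0.05). Their part in the C3 level was not tested. Among other cell types, limma called 3 of 4 Schwann cell, 2 of 7 striated muscle and 1 of 7 fat cell markers lower. It called 1 of 3 hepatocyte markers higher, and 4 of 8 modulated smooth muscle markers higher with 2 lower. It called 0 of 2 neutrophil, 0 of 1 lymphocyte and 0 of 5 red blood cell markers, with 0 of these at an unadjusted p under 0.05. All these counts stand beside 17.1% of all tested genes called higher and 15% lower.

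Interferons and inflammatory signals are known inducers of C3, C4b, C2, Cfb and Serping1. Of 16 tested interferon response genes 6 rose and 1 fell, beside 17.1% of all tested genes called higher and 15% lower. Ifit3, an antiviral effector, rose from 4.72 ± 0.334 to 14.1 ± 1.32 FPKM (adjusted p = 1.68e-05), and Usp18, a brake on interferon receptors, from 1.31 ± 0.304 to 3.27 ± 0.716. Stat2, Irf9 and the RNA sensor Ddx58 also rose, with log2 differences of 0.30, 0.34 and 0.31. The Ddx58 call was lost in 9 of 21 alternatives, over which its log2 difference ran from 0.11 to 0.52. The calls of Stat2 and Irf9 were lost in 2 each. Psmb8, an immunoproteasome subunit, fell from 12.7 ± 2.68 to 7.51 ± 1.59 FPKM. Of 14 tested genes of NF-kB, C/EBP and the acute phase 1 rose and 1 fell, 14.3% in all. Stat3, which carries the interleukin-6 signal, rose by 0.22 (adjusted p = 0.0325), and Nfkbia, the NF-kB inhibitor and target, fell from 91.3 ± 27.5 to 49.6 ± 14.4 FPKM (adjusted p = 0.0309). The Stat3 call was lost without control 1 or 3 or knockout 2, 3 or 4 (0.17 to 0.22) and that of Nfkbia without control 1, 2 or 3 or knockout 3 or 4 (-0.89 to -0.68). Il6 reached at most 0.148 FPKM.

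For each of the 9 genes the 2 other genes of most similar pattern were taken as those with the smallest root mean square difference of centred log2(FPKM + 1) over the 8 libraries, among 12107 genes. For C3 these were Rcan1, an inhibitor of calcineurin (0.13), and Spcs3, a signal peptidase subunit (0.18). C4b was nearest to Spi1, the myeloid factor PU.1 (0.10), and to Spcs3 (0.10), and C2 to Angpt4, an angiopoietin (0.11), and the collagen gene Col8a2 (0.11). C7 and Cfb both had Abca9, a lipid transporter gene, among their 2 nearest (0.06 and 0.08), with Fhl2 for C7 (0.08) and Cpxm2 for Cfb (0.07). C1ra was nearest to Efnb1, an ephrin ligand (0.07), and Man2b2 (0.08), Serping1 to Osbp and Cct4 (0.04 each), and Cd55 to Hspe1 and Dynll1 (0.08 each). For Cd59a they were Rpl14-ps1 and Igip, at 0.14 and 0.15. These distances describe the same 8 libraries and carry no test.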

How the data were processed

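Gene expression was measured in 8 libraries of thoracic aorta. The authors deposited FPKM, 1 column per library, for 23993 gene symbols. Per the submitters' processing notes the tools were TopHat2, Cufflinks and Cuffdiff and the build mm10, with no version or role for any of them. Annotation, strandedness and scaling of the FPKM between libraries: not given in the sources used here. Values were used as deposited and transformed as log2(FPKM + 1), which understates changes of low genes. A filter on the mean (1 FPKM or more) left 12107 genes, which were fitted with limma 3.58.1 in R 4.3.3 (eBayes with a mean-variance trend, genotype as the only term), two-sided, with Benjamini-Hochberg adjustment over all of them and a threshold of 0.05. The fit was tested only on simulated data with independent noise, which lacked the odd or even pattern of these libraries. Intervals are 95%. Coordinates are those of GENCODE M21 on GRCm38, and genes were matched by symbol. Alternatives were another pseudocount, filters, scalings, weights, odd or even replicate number, the replicate number as a block, and leaving out libraries. The odd or even split was itself chosen from earlier results of these libraries.

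Named genes were taken from the 9 genes and Tsc1, from each other list the called genes up to the 8 with the largest log2 difference, the main genes of neighbouring pathway steps, and the 2 nearest in pattern to each of the 9. Alb, Clic1, C5ar2, C8a, C8b, C8g, Cebpb, Cebpd, Col14a1, Il6, Mbl2, Pdgfra and the close copies C4a, Cd59b and Daf2 were named after their values were seen. Some listed genes are counted but not reported here by name. The genes and lists were chosen with earlier results of these data known. Other markers counted were those of lymphocytes, neutrophils, hepatocytes, modulated smooth muscle, Schwann cells and red blood cells.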

Additional observations from a re-analysis of the deposited data

How the results depend on the processing

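Among the 9 genes, C2 kept its call in all 21 alternatives and Cd59a in 19. The count of genes called higher was 0 and became 1 (C1ra) with the replicate block, with an odd or even term, and within odd- or even-numbered libraries alone. The count called lower was 2 and stayed at 2 whenever a single library was left out. It became 3 within odd-numbered libraries, with Cd55 added, and 1 within even-numbered libraries and without controls 1 and 4. The odd or even split and the removal of controls 1 and 4 were both chosen after data were seen. Genes near 0 changed sign without being called. C3 was at -0.29 within even-numbered libraries and without controls 1 and 4, and -0.0657 to 0.207 with a single library left out, below 0 without control 1 (-0.0299), control 4, knockout 1 (-0.0642) or knockout 3 (-0.0534). C4b was at 0.062 with a common sum without small RNA, 0.0272 with library weights, 0.16 within odd-numbered libraries and -0.156 to 0.121 with a library left out, above 0 without control 3, knockout 2 or knockout 4. Cfb was at -0.171 to 0.0719 with a library left out, above 0 without control 3. The cause was not tested.

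Of other complement genes 6 were higher, 3 to 5 with a library left out and 3 without controls 1 and 4, and 4 were lower, 3 to 4 with a library left out. The lower count was 2 with a minimum mean of 5 FPKM, where fewer genes are tested, 7 with the replicate block and within even-numbered libraries, and 9 with the odd or even covariate. Neighbours of C2 and C4b called higher numbered 0, but 2 with the common sum and 1 with quantile scaling, library weights and the covariate, and 0 to 1 with a library left out. Inducer genes called higher were 7, 5 to 7 with a library left out, 4 within odd-numbered libraries, 3 within even-numbered ones and 4 without controls 1 and 4. Those called lower were 2, 1 to 2 with a library left out, 4 within even-numbered libraries and 1 without controls 1 and 4. All genes called fell from 2074 higher and 1819 lower to 1292 and 1097 without controls 1 and 4. Scaling to a common sum without small RNA moved the share of calls that were higher from 53.3% to 68.7%. The Tsc1 call was lost within odd-numbered (-0.39) and even-numbered libraries (-0.49). Whether the replicate numbers pair the libraries is not known. Same-numbered deviations from the group means correlated at 0.0656 to 0.173 and over 0.1 in 3 of 4 pairs. Only 2 controls and 1 knockout correlated best with their own number. Correlations this weak cannot settle whether same-numbered libraries share anything. Unknown depth limits the low genes most.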

Other observations

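Traces of hepatocyte transcripts differed between libraries. Alb, which encodes serum albumin, had 4.68, 11.8, 0 and 0.0254 FPKM in controls and 12.5, 0.37, 0.0239 and 0.28 in knockouts, where 0 is the listed value. The liver complement gene C8b was above 0 in the same 3 libraries with the highest Alb, at 0.0278, 0.105 and 0.146 FPKM in controls 1 and 2 and knockout 1, and is listed at 0 in the other 5. These values are near the floor, and C8b was picked after they were seen. Of other low complement genes, C8a was above 0 in the same libraries only, while Hc and Mbl2 were also above 0 in others. Another hepatocyte marker, Ahsg, which encodes fetuin-A, did not follow Alb. It had 8.51, 16.8, 7.84 and 10.9 FPKM in controls and 22.2, 15.6, 24.6 and 19.8 in knockouts. The 8 hepatocyte markers summed to 8.03 to 36.7 FPKM in controls and 16.6 to 44.4 in knockouts. In controls 3 and 4 and knockouts 2, 3 and 4 nearly all of the sum was Ahsg. Among knockouts, C3, Serping1, Cfb, C7 and Cd55 were highest in knockout 1 (53.7, 264, 9.30, 18.8 and 4.35 FPKM). C4b, C2 and C1ra were highest in knockout 3 and Cd59a in knockout 4. C3 was almost as high in knockout 3 (52.5 FPKM), where Alb was 0.0239. In control 2, with Alb at 11.8, C3 (49.3 FPKM) was about as high as in control 3 and above controls 1 and 4. Serping1 (255 FPKM) and Cfb (7.36 FPKM) were in control 2 below controls 1 and 3. How far hepatocyte transcripts add to the 9 genes was not tested.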
